A study of Homo sapiens with 4 samples.

Results

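The transcripts described here are those of 10 chemokine genes, IL8 (current symbol CXCL8), CXCL1, CXCL2, CXCL3, CXCL5, CXCL10, CXCL16, CX3CL1, CCL2 and CCL20. They were picked by gene name, with earlier results of these data known, from the 55764 gene names listed in the expression table, and all 10 were listed. The cells were TE5, a line from a human oesophageal squamous cell carcinoma, and their RNA was profiled by bulk sequencing. The cells of 2 libraries carried a lentiviral vector with a CMV promoter driving human ETS1, a transcription factor of the ETS family. Those of the 2 control libraries carried only the vector's backbone (genotype label WT). Both groups were infected with virus made in HEK293T cells, in the presence of Polybrene, and then selected for stable carriage. The labels do not say whether each line is a clone or a pool, nor whether the 2 libraries of a group are separate cultures, so p-values measure only the spread between these libraries, which may be technical.

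Chemokines are small secreted proteins that draw leukocytes along a concentration gradient by acting on G protein-coupled receptors. IL8, CXCL1, CXCL2, CXCL3 and CXCL5 act on CXCR2 of neutrophils, CXCL10 acts on CXCR3 of activated T and natural killer cells, CCL2 acts on CCR2 of monocytes, and CCL20 acts on CCR6 of dendritic cells, B cells and T helper 17 cells. CXCL16 and CX3CL1 differ from these in being made as transmembrane proteins, which act on CXCR6 and CX3CR1 and are released by metalloproteases. Epithelial and tumour cells make many of them when NF-kB, often together with AP-1 or C/EBP factors, is activated by cytokines or microbial products, and interferon drives CXCL10.

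The promoters are described first. The genes were not picked by sequence, but many of them are known to be made when NF-kB is activated, as said above. An NF-kB motif was therefore likely beforehand, so its count beside the share over all promoters carries no support of its own. RefSeq promoters (GRCh38.p14, 250 bases before to 50 bases after the start site) were given for 7 of the 10 genes, IL8, CXCL1, CXCL2, CXCL3, CXCL5, CXCL10 and CCL20. The motifs searched, on both strands, were GGAATTTCC and GGG-any 2 bases-TTTCC for NF-kB, which can overlap each other, TGANTCA for AP-1, TTGCNNAA for C/EBP, GAAA-any 2 bases-GAAA for the interferon-stimulated response element (ISRE), and CGGAAG and AGGAAG for ETS factors, which can also overlap. An NF-kB motif was found in all 7 promoters. The same letters were found in 2.23% of the 27305 promoters in the table (608 promoters). The match and 15 bases on each side are given below, read 5′ to 3′ on the strand of the gene, with the match in capitals.
IL8: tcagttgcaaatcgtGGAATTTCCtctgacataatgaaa
CXCL1: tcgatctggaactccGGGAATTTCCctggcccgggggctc
CXCL2: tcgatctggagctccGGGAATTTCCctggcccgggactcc
CXCL3: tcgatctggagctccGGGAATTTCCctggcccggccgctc
CXCL5: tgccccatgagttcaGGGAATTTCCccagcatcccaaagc
CXCL10: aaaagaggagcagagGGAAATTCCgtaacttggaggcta
CCL20: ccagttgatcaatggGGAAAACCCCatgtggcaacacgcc

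The 4 paralogs CXCL1, CXCL2, CXCL3 and CXCL5 held the same matched letters on the strand of the gene. Their first base lay 79, 78, 79 and 91 bases before the start site. The match of IL8 also began 91 bases before the start. In CCL20 it began 79 bases before the start and in CXCL10 176 bases before it, in both on the opposite strand. Globally aligned, the promoters of CXCL1 and CXCL3 were identical at 82.5% of aligned columns, those of CXCL2 and CXCL3 at 73.8%, and those of CXCL1 and CXCL2 at 71.9%. Every other pair among the 7 lay between 45.2% (IL8 with CXCL1) and 55.4% (CXCL2 with CXCL5).

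The whole promoters of 4 genes are given because they carry different sets of motifs and belong to the genes whose changes are set side by side below. Capitals mark all motif matches. IL8 lies at chr4:73740319-73740618 on the plus strand, CXCL2 at chr4:74099146-74099445 on the minus strand, CXCL10 at chr4:76023448-76023747 on the minus strand and CCL20 at chr2:227813592-227813891 on the plus strand.
IL8: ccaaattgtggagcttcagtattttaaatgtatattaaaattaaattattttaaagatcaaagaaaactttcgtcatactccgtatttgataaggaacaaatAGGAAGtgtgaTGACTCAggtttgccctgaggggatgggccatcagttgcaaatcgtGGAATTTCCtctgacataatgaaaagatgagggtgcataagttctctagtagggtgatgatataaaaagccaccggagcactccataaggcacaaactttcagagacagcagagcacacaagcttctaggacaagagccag
CXCL2: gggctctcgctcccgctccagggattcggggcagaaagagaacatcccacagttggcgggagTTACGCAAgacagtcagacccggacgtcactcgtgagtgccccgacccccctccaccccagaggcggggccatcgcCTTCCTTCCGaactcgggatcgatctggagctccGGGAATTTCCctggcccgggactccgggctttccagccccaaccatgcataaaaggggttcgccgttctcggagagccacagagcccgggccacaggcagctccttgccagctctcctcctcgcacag
CXCL10: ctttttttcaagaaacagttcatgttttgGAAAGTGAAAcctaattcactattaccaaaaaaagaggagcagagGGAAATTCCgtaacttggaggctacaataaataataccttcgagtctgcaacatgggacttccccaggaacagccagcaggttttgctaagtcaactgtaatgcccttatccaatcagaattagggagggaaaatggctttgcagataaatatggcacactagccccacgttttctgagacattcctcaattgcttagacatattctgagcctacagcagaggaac
CCL20: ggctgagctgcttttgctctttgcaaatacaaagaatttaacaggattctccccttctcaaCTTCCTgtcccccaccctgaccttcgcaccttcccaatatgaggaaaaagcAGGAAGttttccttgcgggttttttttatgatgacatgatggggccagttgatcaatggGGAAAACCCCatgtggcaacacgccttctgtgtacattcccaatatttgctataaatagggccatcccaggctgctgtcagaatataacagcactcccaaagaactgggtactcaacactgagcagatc

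Beside its NF-kB match, the IL8 promoter held an AP-1 match 137 bases before the start and an ETS match 148 bases before it. CXCL2 held a C/EBP match 188 bases before the start, and CXCL10 an ISRE match 221 bases before it. AP-1, C/EBP and ISRE matches were found in 7.76%, 10.6% and 3.65% of all promoters. An ETS match was found in 6 of the 7, the exception being CXCL10, and in 47.2% of all promoters. A match is a run of letters and says nothing of whether a factor was bound, which was not measured.

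**Figure D1:**
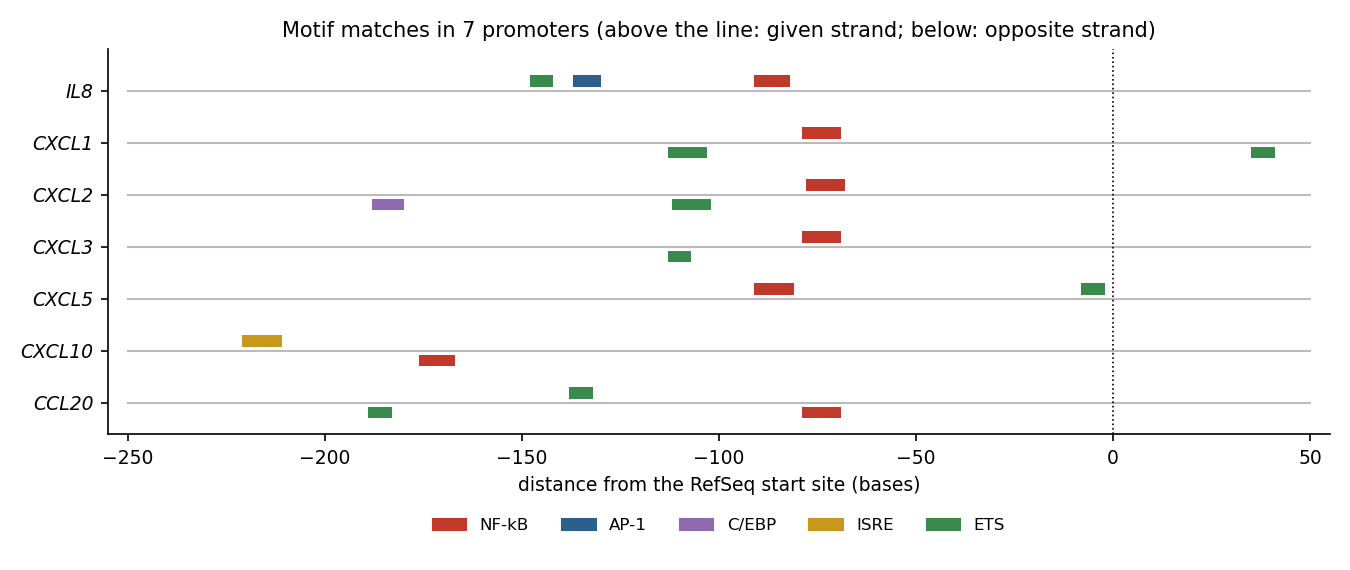
Motif matches in the 7 RefSeq promoters, drawn by distance from the start site in bases (x axis), 1 line per gene; boxes above a line are on the strand of the gene and boxes below it on the opposite strand. The red NF-kB boxes begin between 78 and 91 bases before the start in all genes but CXCL10, where the box begins 176 bases before it.

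The ETS1 transcript itself was measured at 0.491 and 0.509 FPKM in the controls and at 1.84 and 1.87 FPKM in the ETS1 libraries. FPKM is the number of fragments per kilobase of gene and of library size. The groups did not overlap, in the direction the labels give (log2(FPKM + 1) difference 0.93, limma adjusted p = 0.000704, with the filter passed only through the ETS1 libraries), and the table does not separate the vector's transcript from the cells' own. Gene reads could be recovered from the FPKM values and numbered 40531103 and 44309351 in the controls and 57541564 and 56772514 in the ETS1 libraries. Of the 5 epithelial markers, the keratins KRT8 and KRT18 were listed at 3.87 to 10.5 FPKM in the controls, EPCAM at 1.37 and 1.36, CDH1 at 0.571 and 0.567, and the keratin KRT19 at 0.0106 and 0. Of the 6 squamous markers KRT5, KRT14, KRT6A and TP63 were at 0 in both controls and at 0.0165 FPKM or less in the ETS1 libraries. KRT13 was listed at no more than 0.0935 FPKM, and SOX2, a transcription factor of the squamous oesophagus, at 2.72 and 3.13 FPKM in the controls and 3.52 and 3.82 FPKM in the ETS1 libraries (0.25, limma adjusted p = 0.0301). These markers were named after their values had been seen. In bulk RNA, fewer cells making a transcript and less of it per cell cannot be told apart.

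Each of the 10 chemokine transcripts was listed at a higher FPKM in both ETS1 libraries than in either control. The same held for 31.7% of the 35055 genes with a read in any library and for 39.1% of the 24842 genes with at least 10 reads. For CXCL5 and CX3CL1, which had no control read, no difference was detectable. The 5 members with a mean of at least 1 FPKM over the 4 libraries, IL8, CXCL2, CXCL3, CXCL16 and CCL20, were tested, by limma on log2(FPKM + 1) over 14306 genes, and all 5 were higher in the ETS1 libraries at an adjusted p under 0.05. Over all genes tested, 30.7% were higher and 28.4% lower by that rule. Of the 5, 4 lay under 1 FPKM in both controls and passed the filter only through the ETS1 libraries, so they had to differ, and the count of 5 carries no support of its own. The other 5 members, CXCL1, CXCL5, CXCL10, CX3CL1 and CCL2, stayed under the filter. With no filter CXCL1 was called too, making 6 of 10, where 10.3% of all 35055 genes were higher. To reach them, limma's voom was run on the recovered reads of the 24842 genes with at least 10 reads in all, an alternative added after seeing the data. It tested 8 members and put 6 higher and 0 lower, where 23.6% of all genes so tested were higher and 19.2% lower. CCL20 and CCL2, with 6 and 4 control reads in all, passed this filter only through the ETS1 libraries, so this count carries no support of its own either.

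**Figure D2:**
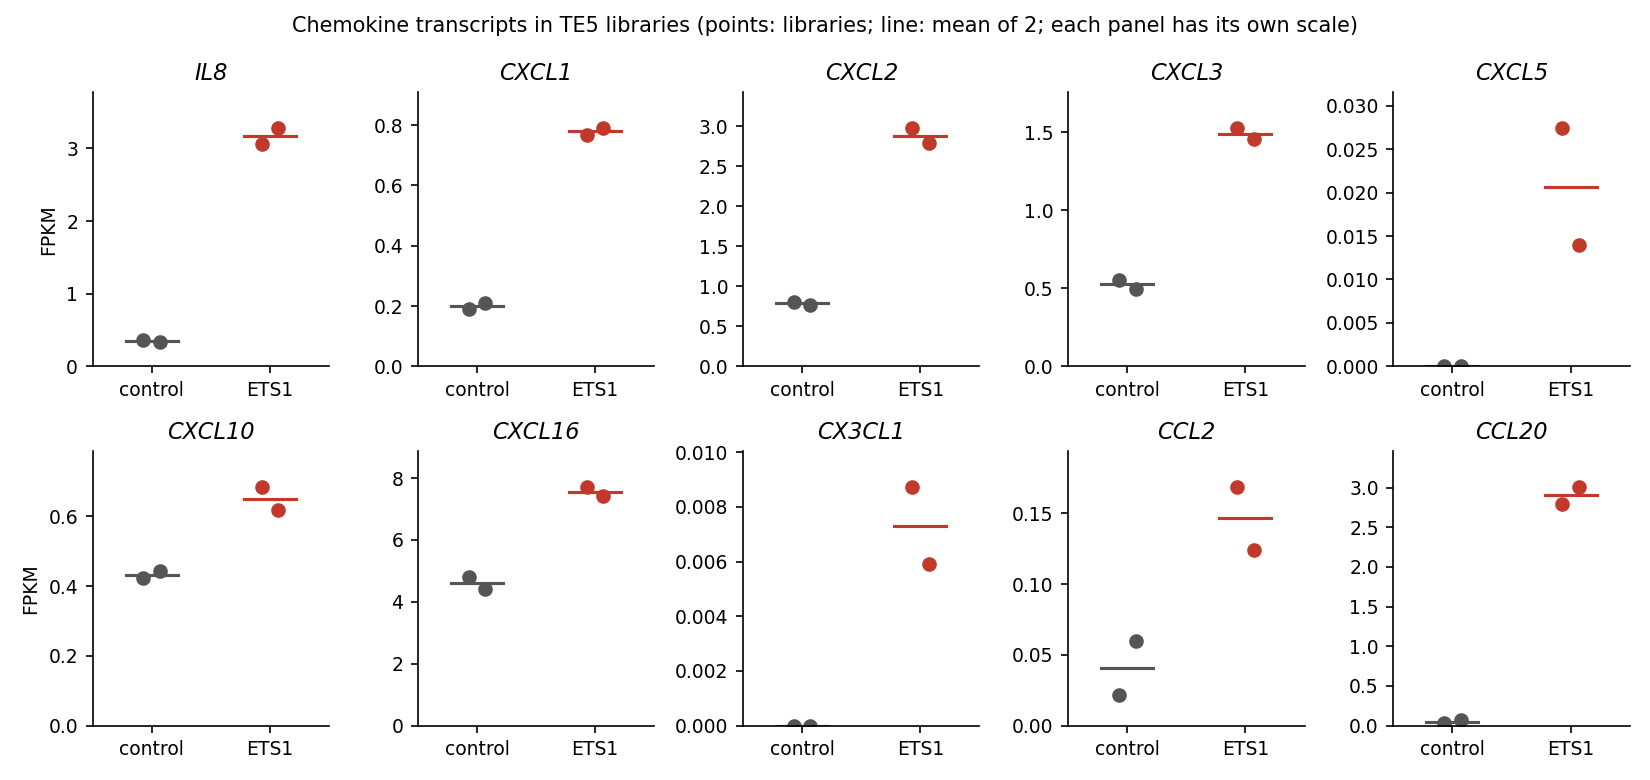
FPKM of the 10 chemokine transcripts (y axis, a scale of its own in each panel) in the 2 control libraries (grey) and the 2 ETS1 libraries (red); points are libraries and lines are means of 2. In every panel both red points lie above both grey ones, from CX3CL1 at no more than 0.00872 FPKM to CXCL16 at 7.71 FPKM.

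Among the neutrophil attractants, IL8, the ligand of both CXCR1 and CXCR2, was listed at 0.370 and 0.338 FPKM in the controls and at 3.06 and 3.28 FPKM in the ETS1 libraries. The reads behind these were 34 and 34 against 400 and 423. The ETS1 libraries were thus far above the controls, with little spread within either group (0.354 ± 0.022 against 3.17 ± 0.16 FPKM, SD, n = 2 per group). The ratio of the mean FPKM was 8.97, and the pooled read rates gave 8.98 with a 95% exact interval of 7.01 to 11.7, which covers counting error only. On the log2(FPKM + 1) scale, which understates the change of low genes, the difference was 1.62 (SE 0.062, limma adjusted p = 0.000439). On recovered reads it was 3.15 (SE 0.21, voom adjusted p = 5.51e-08).

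CXCL2, a second CXCR2 ligand, was the most abundant of this group in the controls, at 0.808 and 0.769 FPKM. It stood at 2.98 and 2.79 FPKM in the ETS1 libraries, on 257 and 237 reads against 49 and 51. Both ETS1 libraries were above both controls, and the groups did not overlap. Mean levels were 0.788 ± 0.027 and 2.89 ± 0.14 FPKM (SD, n = 2 per group), and their ratio was 3.66. The log2(FPKM + 1) difference was 1.12 (SE 0.059, limma adjusted p = 0.000516).

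CXCL3, its close paralog, was listed at 0.557 and 0.499 FPKM in the controls and at 1.53 and 1.45 FPKM in the ETS1 libraries. Its groups were again apart by far more than the libraries of a group differed. The means were 0.528 ± 0.041 and 1.49 ± 0.053 FPKM (SD, n = 2 per group), a ratio of 2.83, and the log2(FPKM + 1) difference was 0.71 (SE 0.067, limma adjusted p = 0.00144).

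CXCL1, the third of these paralogs, was under the filter, with 0.191 and 0.210 FPKM in the controls and 0.767 and 0.791 FPKM in the ETS1 libraries. These values rest on 10, 12, 57 and 58 reads. Both ETS1 libraries were above both controls by a ratio of means of 3.89 (95% exact interval of the read rate ratio 2.44 to 6.43). The voom fit gave a log2 change of 1.91 (SE 0.36, adjusted p = 0.000666). Of all stretches of 50 bases in their transcripts, 12.5% in CXCL2, 6.01% in CXCL3 and 4.81% in CXCL1 also occurred in another gene, chiefly in one another, so a small part of their reads may have been shared out between them or dropped in the counting.

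CXCL5 had no read in either control, with 4 and 2 reads in the ETS1 libraries (0.0274 and 0.0139 FPKM). A count of 0 allows up to 0.0292 and 0.0267 FPKM in the controls at a floor of 3 reads per library, so a difference was not detectable at this depth and no fold is given. The 5 neutrophil attractants together came to 1.92 and 1.82 FPKM in the controls and to 8.37 and 8.33 FPKM in the ETS1 libraries. Most of this sum was CXCL2 and CXCL3 in the controls, and IL8 and CXCL2 in the ETS1 libraries.

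CCL20, the only known chemokine ligand of CCR6, was listed at 0.0371 and 0.0679 FPKM in the controls, on 2 and 4 reads. It was listed at 2.80 and 3.01 FPKM in the ETS1 libraries, on 214 and 227 reads. It went from close to undetected to the level of CXCL2. The means were 0.0525 ± 0.022 and 2.90 ± 0.15 FPKM (SD, n = 2 per group), a ratio of 55.3. Because so few control reads stand behind it, the read rate ratio of 54.5 has a wide 95% exact interval, 24.9 to 149. The difference was 1.89 on the log2(FPKM + 1) scale (SE 0.068, limma adjusted p = 0.000436) and 5.60 on recovered reads (SE 0.57, voom adjusted p = 2.46e-06). By size, CCL20 was the 9th highest of the 14306 changes on the first scale and the 4th highest of 24842 on the second, and IL8 was the 19th and the 113th. CCL20 passed both filters, and IL8 the first, only through the ETS1 libraries, so these ranks carry no support of their own.

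CXCL16, a transmembrane chemokine and scavenger receptor, was the most abundant of the 10 in every library. It was listed at 4.80 and 4.42 FPKM in the controls and at 7.71 and 7.42 FPKM in the ETS1 libraries, on 542 to 1236 reads. The groups did not overlap, and it is the only tested member above 1 FPKM in the controls. The means were 4.61 ± 0.27 and 7.56 ± 0.21 FPKM (SD, n = 2 per group), a ratio of 1.64 and a log2(FPKM + 1) difference of 0.61 (SE 0.049, limma adjusted p = 0.000981). CXCL16 overlaps MED11 on the opposite strand, and whether the counting used strand is not given in the sources used here. MED11 was listed at 10.2 and 9.38 FPKM in the controls and at 10.4 and 10.2 FPKM in the ETS1 libraries.

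CX3CL1 (fractalkine), the other transmembrane member, had no read in either control and 3 and 2 reads in the ETS1 libraries. The control floor was 0.0124 and 0.0113 FPKM, above its 0.00872 and 0.00589 FPKM in the ETS1 libraries, so no difference was detectable.

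CXCL10 and CCL2 did not pass any test run on them. CXCL10, an interferon-inducible chemokine, was listed at 0.422 and 0.444 FPKM in the controls and at 0.684 and 0.618 FPKM in the ETS1 libraries, on 20, 23, 46 and 41 reads. Both ETS1 values were above both control values, with a read rate ratio of 1.50 (95% exact interval 1.03 to 2.22). Its voom log2 change was 0.57 (SE 0.30, adjusted p = 0.147), and the authors' deposited table gives 0.14 (SE 0.28, adjusted p = 0.355). The unadjusted p in the authors' deposited table, 0.257, is smaller than that change and standard error would give. The deposited change and the voom change may thus not be on like scales. CXCL10 overlaps ART3 on the opposite strand, which was listed at no more than 0.0213 FPKM. CCL2, the main monocyte attractant, was listed at 0.0218 and 0.0597 FPKM in the controls (1 and 3 reads) and at 0.169 and 0.124 FPKM in the ETS1 libraries (11 and 8 reads). Its read rate ratio was 3.53, with a 95% exact interval of 1.17 to 14.2, and its voom log2 change was 1.66 (SE 0.74, adjusted p = 0.0898). A p that misses the threshold does not show that these levels were the same.

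**Figure D3:**
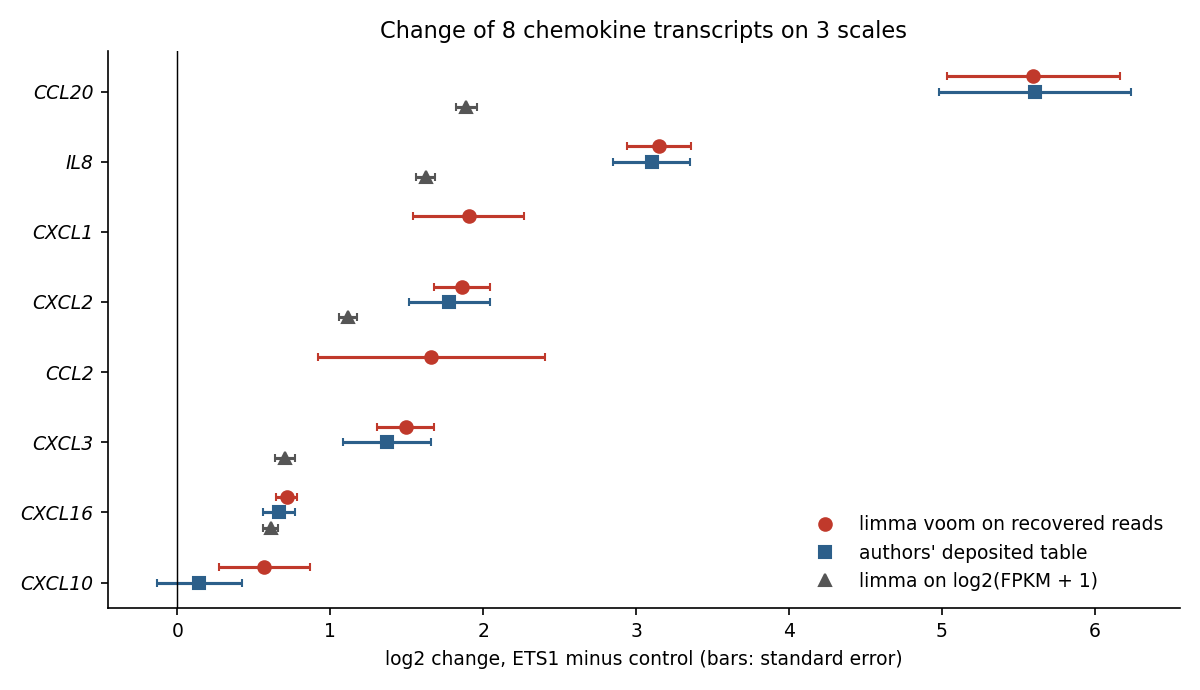
Log2 change of 8 chemokine transcripts, ETS1 minus control (x axis; bars are standard errors), by limma voom on recovered reads (red circles), in the authors' deposited table (blue squares) and by limma on log2(FPKM + 1) (grey triangles). Of the 6 genes with both of the first 2 scales, CXCL10 is the one where they lie apart (0.57 against 0.14), while the log2(FPKM + 1) scale is compressed for low genes, to 1.89 against 5.60 for CCL20.

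The authors' deposited table held 6 of the 10 genes and put 5 of them higher, where 25.3% of its 15683 genes with an adjusted p were higher. No gene in it has a mean under 0.500 FPKM, and IL8, CXCL10 and CCL20, whose control means lie under that, were in it only through the ETS1 libraries, so nothing is read from the count. In the authors' deposited table the log2 fold change was 5.61 (SE 0.63) for CCL20 and 3.10 (SE 0.25) for IL8. It was 1.78 (SE 0.26) for CXCL2, 1.37 (SE 0.29) for CXCL3 and 0.67 (SE 0.10) for CXCL16 in the authors' deposited table. These differed from the voom values by less than 1 standard error of either source.

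The order of the levels changed between the groups. In the controls the mean FPKM fell from CXCL16 through CXCL2, CXCL3, CXCL10, IL8 and CXCL1 to CCL20 and CCL2, with CXCL5 and CX3CL1 at 0. CCL20 and CCL2 overlapped between libraries and so did not differ beyond their spread. In the ETS1 libraries the order was CXCL16, IL8, CCL20, CXCL2, CXCL3, CXCL1, CXCL10, CCL2, CXCL5 and CX3CL1, and the overlapping neighbours were CCL20 and CXCL2. IL8 thus moved from the fifth place to the second and CCL20 from the seventh to the third, while CXCL10 moved from the fourth to the seventh.

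Expressed as shares of the summed FPKM of the 10 genes, CXCL16 made up 66.6% and 64.9% in the controls and 39.1% and 38.0% in the ETS1 libraries. The share of IL8 was 5.13% and 4.96% in the controls and 15.5% and 16.8% in the ETS1 libraries. That of CCL20 was 0.515% and 0.997% against 14.2% and 15.4%. CXCL3 held a similar share in the 4 libraries, between 7.33% and 7.75%. The sum itself was 7.21 and 6.81 FPKM in the controls and 19.7 and 19.5 FPKM in the ETS1 libraries, so a smaller share of CXCL16 stands beside a higher level of it.

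Of the 10 genes, 6 lie on chromosome 4 (GRCh38, GENCODE 29). IL8 is at chr4:73740506-73743716 and CXCL1 at chr4:73869393-73871242, both on the plus strand. CXCL5 (chr4:73995642-73998779), CXCL3 (chr4:74036589-74038807) and CXCL2 (chr4:74097035-74099293) follow on the minus strand, and CXCL10 (chr4:76021117-76023497, minus strand) lies 1922 kb beyond CXCL2. CCL20 is at chr2:227805739-227817564 and CX3CL1 at chr16:57372458-57385048, both on the plus strand. CCL2 (chr17:34255218-34257203, plus strand) and CXCL16 (chr17:4733526-4739922, minus strand) are on chromosome 17. The RefSeq start of CCL20 used for its promoter lies inside the GENCODE gene rather than at its end.

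In the window from 1000 kb before IL8 to 3000 kb after it, 24 other protein-coding genes had at least 10 reads. By voom, 9 of them were higher, 1 was lower and 14 did not pass, with a median log2 change of 0.15. The 9 were COX18, ANKRD17, RCHY1, THAP6, CDKL2, G3BP2, NUP54, SCARB2 and CCDC158, with log2 changes from 0.11 (NUP54) to 1.89 (CCDC158). CCDC158, with 2 and 2 control reads against 11 and 13 ETS1 reads, passed the filter only through the ETS1 libraries. Over all genes tested by voom 23.6% were higher and 19.2% lower, with a median of 0.052. MTHFD2L, which lies just beyond CXCL2 and encodes a mitochondrial folate enzyme, had a voom log2 change of 0.11 (adjusted p = 0.366), and RASSF6, before IL8, one of 0.29 (adjusted p = 0.386). NAAA, a lysosomal amidase gene on the IL8 side of CXCL10, was lower by voom, at -1.30 (adjusted p = 2.17e-07). CXCL6, the CXCR2 ligand between IL8 and CXCL1, was counted on 6 and 3 control reads against 15 and 13 ETS1 reads, a voom log2 change of 1.19 that did not pass (adjusted p = 0.123). PPBP, PF4V1 and CXCL9, further chemokine genes of this region, had no read in any library, and PF4 did not pass by voom (-0.064, adjusted p = 0.956). Over tested protein-coding genes the median log2(FPKM + 1) change was 0.13 on chromosome 4 (389 genes) and 0.035 on all chromosomes (10877 genes). CXCL6, PPBP, PF4V1, CXCL9, PF4, MTHFD2L, RASSF6 and NAAA were picked for their position, after their values had been seen.

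**Figure D4:**
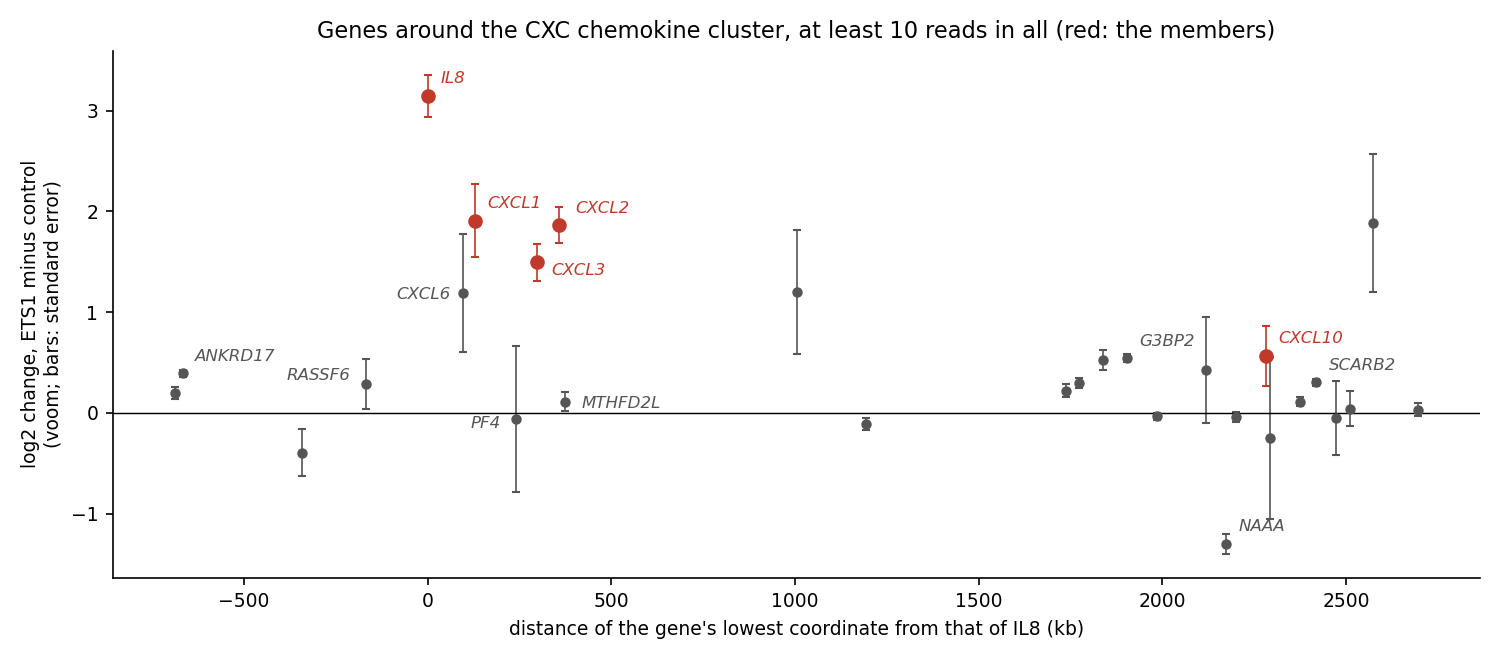
Voom log2 change, ETS1 minus control (y axis; bars are standard errors), of protein-coding genes with at least 10 reads, by distance from IL8 in kb (x axis); the chemokine members are red and other genes grey. IL8, CXCL1, CXCL2 and CXCL3 lie between 1.49 and 3.15, MTHFD2L beside them at 0.11, and CXCL10 at 0.57.

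Of 34 other chemokine ligands, 33 stayed under 1 FPKM in every library and 13 had no read. The only one tested on FPKM was XCL1, a ligand of XCR1, at 2.33, 2.80, 2.19 and 2.27 FPKM. It did not pass (log2(FPKM + 1) change -0.14, limma adjusted p = 0.178); without control replicate 1 it was called lower. Voom tested 10 of them and put 1 higher, CXCL12, the ligand of CXCR4 (log2 change 0.45, adjusted p = 0.00677), and 0 lower, against 23.6% and 19.2% of all genes so tested.

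The receptors of the members were scarce in these cells. CCR6 and CCR2 had no read in any library, CXCR3 had 1 read in all, CXCR1 had 2, and CXCR2 was listed between 0.0601 and 0.0809 FPKM. CX3CR1 had 29 to 44 reads and CXCR6 10 to 26. None of these rose or fell by voom, where CXCR2, CX3CR1 and CXCR6 could be tested (adjusted p = 0.932, 0.889 and 0.708). Of 23 receptors, 2 were tested on FPKM. CCR10, the receptor for CCL27 and CCL28, was lower (-0.22, limma adjusted p = 0.0422), a call that was lost with any 1 of the 4 libraries left out. It lay under 1 FPKM in both ETS1 libraries and passed the filter only through the controls. CXCR4 did not pass (0.14, adjusted p = 0.0699). Over all genes tested 30.7% were higher and 28.4% lower. By voom 1 of 10 receptors was higher, ACKR4, a decoy receptor (log2 change 0.96, adjusted p = 0.0356), and 1 lower, CCR10, against 23.6% and 19.2% of all genes.

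Among 23 cytokines and receptors known to induce chemokines, 4 were tested, of which 2 were higher and 0 lower (median 0.14, against 0.016 over all genes tested). The 2 were IL17RA, the IL-17 receptor chain (0.17, limma adjusted p = 0.0198), and TNFRSF1A, the main TNF receptor (0.14, adjusted p = 0.0263). Neither was called with the replicate number as a block. Without either one of the ETS1 libraries neither was called, and 1 was without either control. By voom 9 of 20 were higher and 1 lower, against 23.6% and 19.2% of all genes. IL1B had no control read and 2 reads in each ETS1 library. IL1A and IL6 had 2 to 6 reads in every library and did not pass by voom (adjusted p = 0.819 and 0.657).

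Of 18 NF-kB subunits, kinases and feedback inhibitors, 15 were tested; 8 were higher, 4 lower and 3 did not pass (median 0.17), against 30.7% higher and 28.4% lower over all genes tested. TNFAIP3, which encodes the feedback inhibitor A20, was listed at 2.72 and 2.73 FPKM in the controls and at 7.41 and 7.31 FPKM in the ETS1 libraries (1.16, limma adjusted p = 0.000417). NFKBIZ, an inducible nuclear cofactor, was listed at 1.20, 1.12, 3.10 and 3.30 FPKM (0.96, adjusted p = 0.000605). In both genes the groups were well apart. NFKBIA, which encodes the inhibitor IkB-alpha, was higher by 0.62 (adjusted p = 0.000482), and NFKBIB, which encodes IkB-beta, was lower (-0.48, adjusted p = 0.00158). Of the subunits, NFKB1 (0.20, limma adjusted p = 0.00948) and RELB (0.17, adjusted p = 0.0454) were higher. RELA, the p65 subunit, did not pass (-0.026, adjusted p = 0.552), nor did NFKB2 (-0.041, adjusted p = 0.36). REL lay under the FPKM filter and was higher by voom (log2 change 0.93, adjusted p = 2.69e-06). Without ETS1 replicate 1 the list had 4 genes higher. The subunits were named after their values had been seen.

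Of 17 AP-1, C/EBP, IRF and STAT genes, 15 were tested; 9 were higher, 2 lower and 4 did not pass (median 0.23), where the shares over all genes tested were 30.7% and 28.4%. IRF7, the interferon-induced regulator, was the lowest of the list at -0.84 (limma adjusted p = 0.00095) and passed the filter only through the controls, on 1.94 and 2.14 FPKM in the controls and 0.709 and 0.672 FPKM in the ETS1 libraries. ATF3, a stress-induced factor, was higher by 0.69 (adjusted p = 0.000439). The count of lower genes was 1 without ETS1 replicate 1, ETS1 replicate 2 or control replicate 2.

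Of 16 other genes known as NF-kB targets, most of them encoding secreted or surface proteins, 3 were tested. IL32, a cytokine, was higher by 1.02 (limma adjusted p = 0.000439) and CSF1, the macrophage growth factor, by 0.30 (adjusted p = 0.00998), whereas SOD2, a mitochondrial enzyme, did not pass (-0.027, adjusted p = 0.62). That is 2 of 3 higher, against 30.7% of all genes tested, and by voom 7 of 11 were higher and 1 lower, against 23.6% and 19.2%. Without ETS1 replicate 2 only 1 of the 3 was higher.

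The sheddases of CXCL16 and CX3CL1 and their regulators were all tested. ADAM17 was higher by 0.29 (limma adjusted p = 0.0039), and ADAM10 did not pass (0.035, adjusted p = 0.51). RHBDF1, which carries ADAM17 to the cell surface, was higher by 0.33 (adjusted p = 0.00216) and its paralog RHBDF2 lower (-0.32, adjusted p = 0.00401). TIMP3, an inhibitor of ADAM17, was higher by 0.24 (adjusted p = 0.0126). That is 3 of 5 higher and 1 lower, beside 30.7% and 28.4% of all genes tested, with values for mRNA only.

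IL8, CXCL1, CXCL2, CXCL3 and CCL20 mRNAs are known to be turned over through AU-rich elements. Of 8 genes for proteins that bind or degrade short-lived mRNAs, most of them through such elements, 5 were higher, 1 lower and 2 did not pass (median 0.19; 30.7% higher and 28.4% lower over all genes). ZFP36 (tristetraprolin), which promotes decay, was higher by 0.47 (limma adjusted p = 0.00222). ZC3H12A (regnase-1), an endonuclease that cuts stem-loops instead, was higher by 0.33 (adjusted p = 0.00828), and HNRNPD (AUF1) was lower (-0.18, adjusted p = 0.00321). Without ETS1 replicate 2 the list had 3 genes higher.

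**Figure D5:**
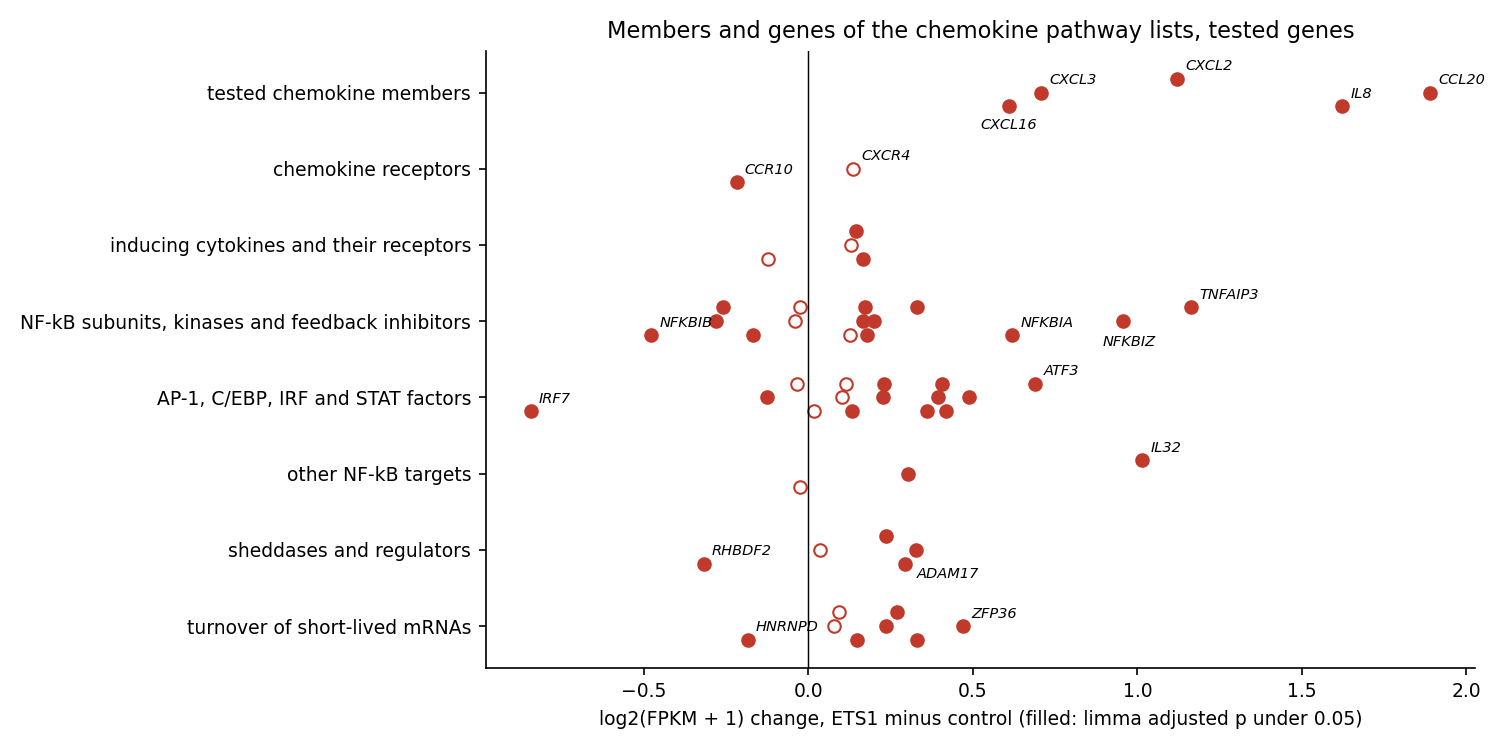
Change on the log2(FPKM + 1) scale, ETS1 minus control (x axis), of the 5 tested chemokine genes and of the tested genes of 7 pathway lists (rows); each point is a gene, filled where the limma adjusted p is under 0.05. The chemokine genes lie between 0.61 and 1.89, and the listed genes between -0.84 (IRF7) and 1.16 (TNFAIP3).

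Markers of other cell types were measured beside these results. The 10 leukocyte markers summed to 1.48 and 1.73 FPKM in the controls and to 2.60 and 2.39 FPKM in the ETS1 libraries, 9 of them under 1 FPKM in every library. The other one was tested on FPKM and was higher by limma (log2(FPKM + 1) change 0.47), where 30.7% of all genes so tested were higher. Over all genes tested by voom 23.6% were higher and 19.2% lower, and the marker counts that follow stand beside those shares. By voom 2 of the 5 that could be tested were higher, ITGAM, an integrin chain of myeloid cells, among them (log2 change 0.89, adjusted p = 0.00181). PTPRC, the leukocyte antigen CD45, had 3 reads in all, LYZ 1 and MS4A1 none. The 9 fibroblast markers summed to 2.36 and 2.20 against 3.17 and 3.29 FPKM, mostly COL1A1, with the other 8 under 1 FPKM. COL1A1, a collagen chain, was higher (0.30, limma adjusted p = 0.00599). By voom 3 of the 5 that could be tested were higher, COL1A1, COL3A1 (log2 change 1.41, adjusted p = 0.0352; 15, 6, 27 and 45 reads) and LUM (2.77, adjusted p = 0.00403; 1, 5, 29 and 24 reads, so that it passed the filter only through the ETS1 libraries). COL1A2 had 1 read in all, and DCN none in the ETS1 libraries. Endothelial markers summed to at most 0.127 FPKM, and 1 of 3 was higher by voom, VWF (1.46, adjusted p = 0.0346). The 5 epithelial markers summed to 16.1 to 16.9 FPKM in the 4 libraries, with KRT8 higher (0.62, limma adjusted p = 0.000591) and KRT18 lower (-0.29, adjusted p = 0.00223). By voom 2 of 4 were higher and 2 lower. The part of the leukocyte, fibroblast and endothelial markers in the chemokine result was not tested. The markers were named after their values had been seen.

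Genes whose log2(FPKM + 1) profile over the 4 libraries lay nearest to that of IL8, by Euclidean distance after centring, included PTX3, a soluble pattern receptor (distance 0.037), a transcript known only by a clone name (0.103), TNC, the matrix glycoprotein tenascin C (0.111), and TNFRSF9, the costimulatory receptor 4-1BB (0.125). The other one of the 5 nearest is not reported here. Nearest to CCL20 were TENM1 (0.035), ADM2 (0.047), ABCC3 (0.090), DTX3 (0.112) and TNC (0.197). With 4 libraries in 2 groups such a profile holds little beyond the difference between the groups.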

How the data were processed

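Bulk RNA of 4 TE5 libraries was measured, 2 with the ETS1 vector and 2 with the empty backbone, grouped by the genotype labels. The deposited table gives FPKM for each library, computed by the authors. The authors' tools included HISAT2, HTSeq and DESeq2, and their build was hg38/GRCh38, per the submitters' processing notes, which give no roles here. The annotation, the use of strand and the tool versions are not given in the sources used here. A second table holds the authors' own comparison of 16652 genes. For each gene it gives a signal, the mean of the authors' normalized counts, per the file headers. The log2 fold changes, standard errors and p-values in it are likewise deposited values, and 969 genes have no adjusted p-value.

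Genes with a mean of at least 1 FPKM were tested by limma 3.58.1 (R 4.3.3) on log2(FPKM + 1) with an intensity trend on the prior variance, two-sided, with Benjamini-Hochberg adjustment over 14306 genes and a threshold of 0.05. Each gene had 2 residual and 2.84 prior degrees of freedom. The smallest two-sided p of an exact permutation test of 2 against 2 is 0.333. Smaller p-values therefore rest on the model, which uses variance shared across genes beside the gene's own variance. The fit was tested on simulated data.

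Within a gene the FPKM values stand in whole-number ratios (relative tolerance 1e-11), from which whole reads were recovered for the 35055 genes with a read, up to a common factor per gene. The authors' mean normalized count fixed that factor, and with it the gene length, for 16587 genes. Of the inferred lengths in the authors' deposited table, 99.988% were whole within 0.0001. Outside that table the smallest reads that give a whole gene length were taken, except for 475 genes, CXCL5 among them, whose factor was set by the GENCODE 29 exon length. Positions come from GENCODE 29 and promoters from RefSeq. Intervals (exact Clopper-Pearson) and floors of 3 reads cover counting error only.

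The text names the 10 members, ETS1, up to 3 tested genes of largest change in each list, any needed to account for a count of 5 or fewer, and genes among the 5 nearest in profile to IL8 and CCL20. Other named genes (overlapping or neighbouring genes, markers, receptors, cytokines and adhesion molecules) were chosen after their values were seen. Some genes that this rule picks are not reported here. Members and lists were chosen with earlier results of these data known. The alternatives tried were a smaller pseudocount, no filter and a stricter filter, quantile normalization, median-of-ratios scaling, a replicate block, no intensity trend, voom on recovered reads, the authors' deposited values, a stricter threshold and each library left out. Protein sequences were not used here.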

Additional observations from a re-analysis of the deposited data

How the results depend on the processing

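IL8, CXCL2, CXCL3, CXCL16 and CCL20 kept their direction and their side of the threshold in every one of the 14 to 15 alternatives that tested them, with log2 changes of 1.54 to 3.15, 1.07 to 1.86, 0.63 to 1.49, 0.56 to 0.72 and 1.75 to 5.61 and adjusted p-values of at most 0.00759, 0.00797, 0.0121, 0.0107 and 0.00759. In the fits filtered at a mean of 1 FPKM, also those with 1 library left out, the filter was set on all 4 libraries. IL8, CXCL2, CXCL3 and CCL20 thus passed it only through the ETS1 libraries and had to differ. That they stayed called in those fits carries no support of its own. CXCL1 passed in both alternatives that reached it (no filter, log2(FPKM + 1) change 0.57, limma adjusted p = 0.0107; voom, 1.91). CXCL10 did not pass in its 3 alternatives (adjusted p = 0.0873 to 0.355), nor CCL2 in its 2 (0.0777 to 0.0898). With a mean FPKM of at least 5, which leaves fewer genes to test, 2562 genes were higher, 1 member (CXCL16) was higher, and the gene lists held 20 higher and 5 lower genes against 31 and 10. With an adjusted p under 0.01, 2667 genes were higher. With 1 library left out, the genes called numbered 2845 to 3962 higher and 2945 to 3720 lower, against 4394 and 4057, and the list genes 20 to 26 higher and 7 to 10 lower; the lone library of an arm is then assumed to vary like the other group, and the 5 members stayed called each time. Median-of-ratios scaling gave 4088 genes higher and 4316 lower. Of the 270 counts recomputed for single lists, 57 moved by over 1.5 times.

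With the replicate number as a block, 3712 genes were higher and 3571 lower, all 5 tested members stayed called higher, and the lists held 24 higher and 8 lower genes. The labels give the number no meaning, and same-numbered libraries did not deviate together (correlation -0.046), so the numbers were not taken to pair the libraries.

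Depth limits CXCL5, CX3CL1 and CCL2, which rest on at most 11 reads in any library, and the control level of CCL20, which rests on 6 reads.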

Other observations

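Several genes of the inflammatory lists that lay under the FPKM filter also differed by voom on recovered reads, and are named here after their values had been seen. The endothelial adhesion molecule SELE (E-selectin) was counted on 5 and 2 control reads against 70 and 71 ETS1 reads, a log2 change of 3.85 (SE 0.57, adjusted p = 8.07e-05). With fewer than 10 control reads in all, it passed the filter only through the ETS1 libraries. VCAM1, the ligand of an integrin on monocytes and lymphocytes, had 8 and 8 reads against 123 and 121 (3.42, adjusted p = 7.66e-06). ICAM1, the ligand of leukocyte integrins, had 7 and 13 reads against 60 and 46 (1.95, adjusted p = 0.00157). In each of the 3 genes both ETS1 libraries were above both controls, at levels under 0.4 FPKM. C3, the central complement component, was higher (1.27, adjusted p = 1.4e-05), while CFB, factor B of the alternative pathway, was lower on 26, 14, 9 and 7 reads (-1.62, adjusted p = 0.021).

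Among the inducing cytokines, TNF was counted on 18 and 13 control reads against 56 and 54 ETS1 reads, a voom log2 change of 1.39 (adjusted p = 0.00375). IL36G, an epithelial cytokine of the IL-1 family, had 4 and 4 reads against 25 and 20 (1.92, adjusted p = 0.0114) and likewise passed only through the ETS1 libraries, and OSMR, the oncostatin M receptor, 91 and 93 against 269 and 256 (1.08, adjusted p = 2.96e-05). LTA, a TNF relative, was lower on 69, 44, 50 and 36 reads (-0.79, adjusted p = 0.0443).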
